A study of Mus musculus with 16 samples.

Results

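The 77 genes described here carry the names of mitochondrial ribosomal proteins. They were taken by name and level: every protein-coding gene of the table whose mouse symbol starts with Mrpl or Mrps and whose mean over all libraries was at least 10 normalised reads. The table lists 27288 genes, of which 82 carry such a symbol. Left out were 4 processed pseudogenes and the protein-coding Mrpl53, whose mean was 0.353 normalised reads and which shares 88.0% of its annotated exon bases with Ccdc142os and Gm42688. Of the 77 members, 48 have an Mrpl symbol and 29 an Mrps symbol. By subunit, 50 belong to the large subunit, including Mrps30 and Mrps18a, and 26 to the small subunit. The remaining one, Mrps36, is now known as a subunit of the alpha-ketoglutarate dehydrogenase complex.

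The RNA came from livers of C57BL/6 mice aged 8 to 10 weeks, and the study compared livers labelled as lacking DRP1 with wild-type livers, each with ethanol and without. DRP1 is the GTPase that divides mitochondria; its gene is Dnm1l. Liver-specific DRP1 knockout (KO) mice and paired wild-type (WT) mice either went through the Gao-Binge ethanol protocol, a period on ethanol-containing diet closed by a binge, or served as controls. This gave 4 groups of 4 libraries, 16 in all: KO ethanol, KO control, WT ethanol and WT control. The driver of the deletion is not given in the sources used here. Separate mice for separate libraries are not stated in the labels, and all p-values therefore refer to the spread among these samples, which may be technical.

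Mitochondrial ribosomes translate the few respiratory chain proteins that mitochondrial DNA encodes. Their 2 ribosomal RNAs come from mitochondrial DNA, while all their proteins are encoded in the nucleus, made in the cytosol and imported, so that assembly draws on both genomes. Hepatocytes are rich in mitochondria, and many nuclear genes for mitochondrial proteins carry sites for the factors NRF1, GABP and YY1 near their start.

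Depth was 11425136 to 13864862 reads assigned to genes per library. Dnm1l did not check the labels: it averaged 642 ± 72.7 normalised reads in KO control and 663 ± 56.1 in WT control libraries (SD, n = 4 each, exact two-sided permutation p = 0.571), and 803 ± 99.3 in KO ethanol and 743 ± 38.4 in WT ethanol libraries (SD, n = 4 each, exact p = 0.343, smallest possible 0.0286). Which exons were deleted is not given in the sources used here, and "KO" below means the libraries labelled knockout. Hepatocyte markers summed to 1101064 to 1636044 normalised reads in KO ethanol, 1237120.3 to 1271596 in KO control, 1449128 to 1793566 in WT ethanol and 1552569.5 to 1846816 in WT control libraries. The KO and WT control libraries did not overlap. Endothelial markers summed to 1732 to 2209.8 in KO ethanol and 1103 to 1721 in KO control, and 2004 to 2258 in WT ethanol and 1143 to 1541 in WT control. Stellate cell markers summed to 3114 to 3488 in KO ethanol and 2101 to 2997 in KO control, and 3280.1 to 3683 in WT ethanol and 2256 to 2748 in WT control. Adipocyte markers, mostly Fabp4, summed to 252 to 551 in KO ethanol and 98.4 to 145 in KO control, and 229 to 459 in WT ethanol and 78.5 to 144 in WT control. These last 3 sums were higher with ethanol, without overlap, in both genotypes, but not every marker followed. In each genotype 3 of 6 endothelial (Cdh5, Lyve1, Pecam1) and 3 of 6 stellate markers (Dcn, Des, Pdgfrb) rose (limma, adjusted p under 0.05). Of all genes 10.2% rose in KO and 18.9% in WT. Estimates were below 0 for 2 of 6 endothelial markers in KO and 1 of 6 stellate markers in each genotype. Dcn, with a mean of 1950 normalised reads, made up most of the stellate sum. KO ethanol library 1 stood apart by pancreatic acinar markers (8683 normalised reads summed, against at most 308 in the others) and KO ethanol library 4 by erythroid markers (6166, against at most 2970). The 12 Kupffer cell and macrophage markers summed to 4741 to 6132 in KO ethanol, 5431 to 7387 in KO control, 1013 to 1503 in WT ethanol and 2298 to 5998 in WT control libraries. With ethanol 1 of these 12 fell in KO and 10 fell in WT, and 12 were higher in KO ethanol than in WT ethanol and 7 higher in KO control than in WT control; the part of any of these marker lists in the results was not tested. In bulk liver, fewer cells of a type and less RNA per cell cannot be told apart.

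RefSeq promoter sequences (GRCm38.p6, from 250 bases before to 50 after the annotated start) were found for 68 of the 77 members. They were searched on both strands for the palindromic NRF1 motif, for the ETS motif of GABPA (CCGGAAG), for YY1 (ATGGCGG) and for the E-box (CACGTG). No match of one motif overlapped a match of another among the members. The 7 promoters below belong to members that the results turn on: the highest per length (Mrpl12), members with large falls (Mrpl18, Mrpl27, Mrpl49, Mrpl41) and the largest rises (Mrps18b, Mrps2). Capitals mark NRF1, ETS and YY1 matches, also where they lie on the opposite strand. Counted from the RefSeq start, Mrpl12 carried an NRF1 match 81 bases before it and Mrpl18 an ETS match 240 bases before. Mrpl27 had an ETS match 55 bases before and a YY1 match 11 bases after. Mrps18b had an ETS match 43 bases after and Mrps2 a YY1 match 29 bases after. The Mrpl18 window lies inside the GENCODE bounds of the gene, so its match is not upstream of the GENCODE start. The Mrps18b window lies wholly before the GENCODE start of that gene. Mrpl49 and Mrpl41 held none of the 3 in these windows.
Mrpl12, chr11:120484387-120484686, plus strand: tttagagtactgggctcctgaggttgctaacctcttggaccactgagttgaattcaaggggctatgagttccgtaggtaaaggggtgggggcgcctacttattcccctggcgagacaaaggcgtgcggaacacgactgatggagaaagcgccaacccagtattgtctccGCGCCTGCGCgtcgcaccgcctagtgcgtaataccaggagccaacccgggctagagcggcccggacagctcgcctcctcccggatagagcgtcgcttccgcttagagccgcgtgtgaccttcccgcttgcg
Mrpl18, chr17:12916042-12916341, minus strand: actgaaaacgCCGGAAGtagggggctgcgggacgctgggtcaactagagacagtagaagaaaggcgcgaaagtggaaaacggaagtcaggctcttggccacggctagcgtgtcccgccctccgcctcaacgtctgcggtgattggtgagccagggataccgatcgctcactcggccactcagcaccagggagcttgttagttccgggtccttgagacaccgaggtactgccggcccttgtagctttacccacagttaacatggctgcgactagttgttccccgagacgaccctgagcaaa
Mrpl27, chr11:94653541-94653840, plus strand: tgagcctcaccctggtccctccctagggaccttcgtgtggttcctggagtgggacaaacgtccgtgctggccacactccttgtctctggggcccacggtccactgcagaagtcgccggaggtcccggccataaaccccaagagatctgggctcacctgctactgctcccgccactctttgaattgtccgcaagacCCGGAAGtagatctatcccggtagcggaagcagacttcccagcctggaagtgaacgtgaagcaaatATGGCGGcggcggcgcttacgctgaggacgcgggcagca
Mrpl49, chr19:6057706-6058005, minus strand: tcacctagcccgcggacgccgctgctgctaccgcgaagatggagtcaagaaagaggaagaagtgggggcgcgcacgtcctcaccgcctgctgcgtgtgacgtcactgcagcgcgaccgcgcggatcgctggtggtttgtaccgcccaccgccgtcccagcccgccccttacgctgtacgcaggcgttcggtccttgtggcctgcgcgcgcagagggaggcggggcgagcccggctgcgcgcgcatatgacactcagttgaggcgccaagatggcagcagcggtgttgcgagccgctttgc
Mrpl41, chr2:24975049-24975348, minus strand: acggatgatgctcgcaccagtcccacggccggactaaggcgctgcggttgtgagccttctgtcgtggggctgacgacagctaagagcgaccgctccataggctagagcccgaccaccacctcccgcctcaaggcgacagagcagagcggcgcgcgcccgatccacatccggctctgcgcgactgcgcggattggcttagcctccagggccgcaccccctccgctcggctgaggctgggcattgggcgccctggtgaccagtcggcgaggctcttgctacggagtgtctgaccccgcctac
Mrps18b, chr17:35916391-35916690, minus strand: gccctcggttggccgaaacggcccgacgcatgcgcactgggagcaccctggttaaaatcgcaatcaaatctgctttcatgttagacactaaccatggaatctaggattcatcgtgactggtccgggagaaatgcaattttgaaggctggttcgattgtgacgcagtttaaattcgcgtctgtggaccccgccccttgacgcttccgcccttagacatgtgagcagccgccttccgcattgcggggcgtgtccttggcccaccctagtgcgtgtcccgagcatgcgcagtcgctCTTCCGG
Mrps2, chr2:28467816-28468115, plus strand: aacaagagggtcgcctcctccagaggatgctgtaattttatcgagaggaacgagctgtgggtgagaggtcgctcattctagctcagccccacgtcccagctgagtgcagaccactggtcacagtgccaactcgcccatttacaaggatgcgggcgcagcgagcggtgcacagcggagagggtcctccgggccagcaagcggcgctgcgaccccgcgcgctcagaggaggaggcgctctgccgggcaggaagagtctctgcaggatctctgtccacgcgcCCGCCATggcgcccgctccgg

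Over all members, 39 of 68 promoters (57.4%) held at least 1 of the 3 motifs, against 16.1% of the 27025 promoters in the table and 32.8% of the 9405 promoters of protein-coding genes tested. ETS matches stood in 23 member promoters (33.8%, against 9.16% of all and 18.6% of those tested), NRF1 in 13 (19.1%, against 4.82% and 10.7%) and YY1 in 12 (17.6%, against 4.22% and 8.57%). E-boxes, in 5 member promoters (7.35%), were as frequent as in all promoters (7.22%) and less frequent than in those tested (10.2%). The YY1 matches lay at a median of 17.5 bases after the start, ETS matches at 15.5 bases and NRF1 matches at 43.5 bases before it, and 23 of 26 ETS, 14 of 16 NRF1 and 11 of 12 YY1 matches were within 100 bases of it. Among the 23 promoters of members that fell with ethanol in either genotype, 26.1% held ETS, 17.4% NRF1 and 21.7% YY1, against 37.8%, 20.0% and 15.6% of the 45 others. These shares are descriptions of the letters in these windows, not of factor binding.

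Per kilobase of annotated exon, the members covered a wide range of levels. Mrpl12, the stalk protein that contacts translation factors, was highest at 774 normalised reads per kb over all libraries, followed by Mrpl2, a protein near the peptidyl transferase centre, at 469, Mrpl14, an interface protein, at 451 and Mrps7, in the head of the small subunit, at 422. Lowest were Mrpl23, a tunnel exit protein, at 2.81, Mrps36 at 11.9, Mrps25 at 20.4 and Mrpl48, of the central protuberance, at 25.8. Mrps25 shares 69.8% of its exon bases with Nr2c2 on the opposite strand, and Mrpl48 has long annotated exons (8152 bases), both of which enter this figure. Mrpl23 had only 11.8 ± 4.76 to 15.4 ± 4.05 normalised reads as a group mean (SD, n = 4), and the table also lists a pseudogene of it. Mrpl12 was the highest and Mrpl23 the lowest in each of the 4 groups, as the plot of levels per kb shows.

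**Figure D1:**
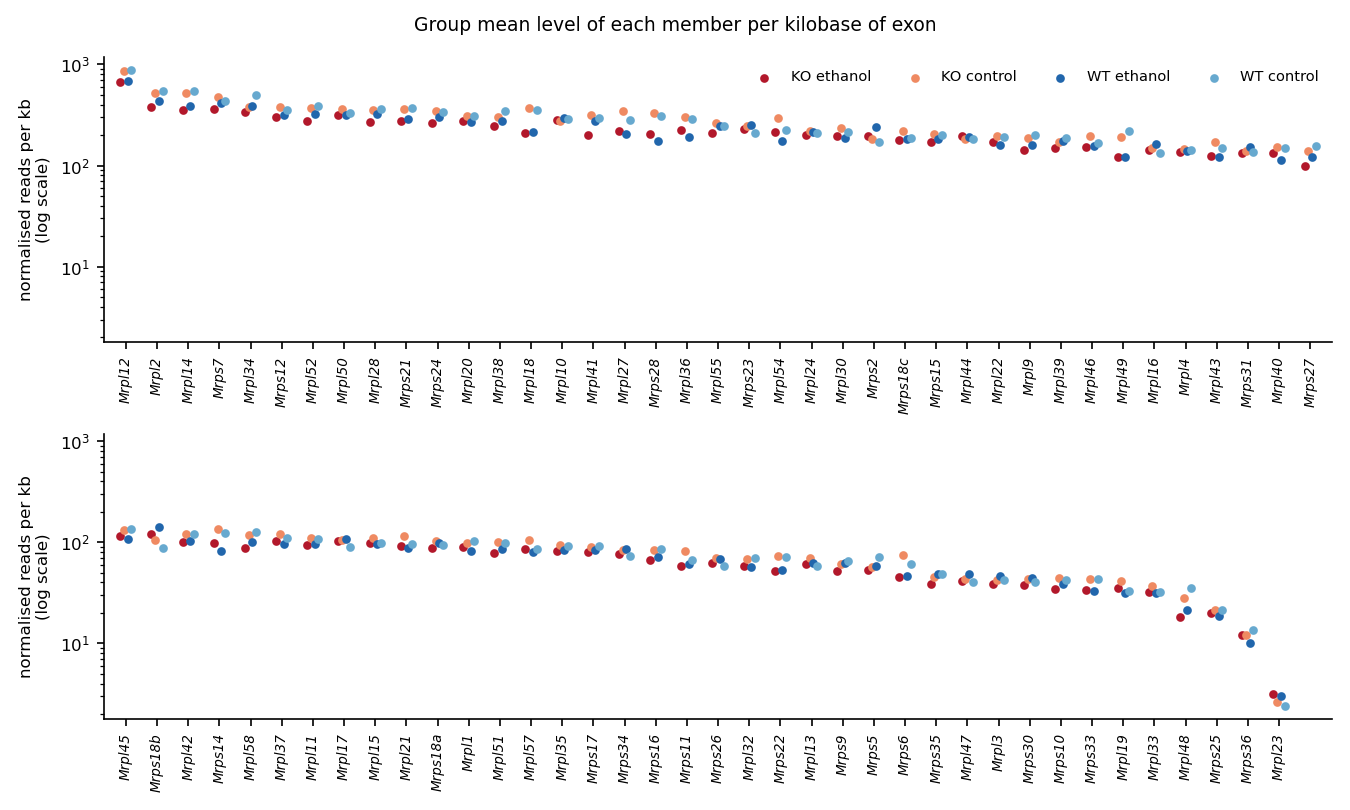
Each point is the mean of 4 libraries, in normalised reads per kilobase of annotated exon (log axis), for one member in one group; members run from the highest to the lowest mean over all 16 libraries. Mrpl12 is highest and Mrpl23 lowest in all 4 groups, and for most members the 4 groups lie close together against the span between members.

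By their mean log2 level the members were lowest in KO ethanol and most uneven in KO control. As a share of all reads they were lowest in WT ethanol. The mean over members of log2(normalised reads + 1) was 8.08 ± 0.04 in KO ethanol and 8.35 ± 0.19 in KO control, and 8.14 ± 0.05 in WT ethanol and 8.30 ± 0.08 in WT control (SD, n = 4 each). KO control libraries 1 and 2, at 8.58 and 8.43, were the highest of all 16, while library 4, at 8.17, lay within the WT ethanol range of 8.10 to 8.21 and library 3, also 8.21 when rounded, just above its maximum. For 59 of 77 members KO control library 1 was the highest of its group, and the median coefficient of variation over members was 15.2% in KO control, against 8.26% in KO ethanol, 9.68% in WT ethanol and 7.83% in WT control. KO control had the highest group mean for 39 members and KO ethanol the lowest for 42. As a share of all normalised reads the members made up 0.210 ± 0.021% in KO ethanol and 0.255 ± 0.033% in KO control, and 0.188 ± 0.015% in WT ethanol and 0.220 ± 0.006% in WT control libraries (SD, n = 4 each).

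The 77 nuclear subunits of the respiratory chain showed the same unevenness: 10.43 and 10.27 in KO control libraries 1 and 2, against 9.93 and 9.89 in libraries 3 and 4. It was not limited to genes for mitochondrial proteins. The 78 cytosolic ribosomal protein genes had 8.34 and 8.16 in KO control libraries 1 and 2, against 7.91 and 7.89 in libraries 3 and 4. Transcripts for proteins encoded by mitochondrial DNA, which the mitochondrial ribosome makes, ran otherwise. The 11 of them that reached a mean of 10 normalised reads are used here, and those below it are left out. These averaged 12.40 ± 0.19 in KO ethanol, 12.02 ± 0.16 in KO control, 13.13 ± 0.24 in WT ethanol and 12.53 ± 0.13 in WT control on the same log2 scale (SD, n = 4 each). With ethanol 1 of these 11 transcripts rose and none fell in KO, and 7 rose and none fell in WT. The rises were 9.09% in KO, where 10.2% of all genes tested rose, and 63.6% in WT, where 18.9% rose. Between genotypes, 7 were lower in KO ethanol than in WT ethanol and 4 lower in KO control than in WT control. This was 63.6% with ethanol, where 3.75% of all genes were lower, and 36.4% in controls, where 5.24% were lower.

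**Figure D2:**
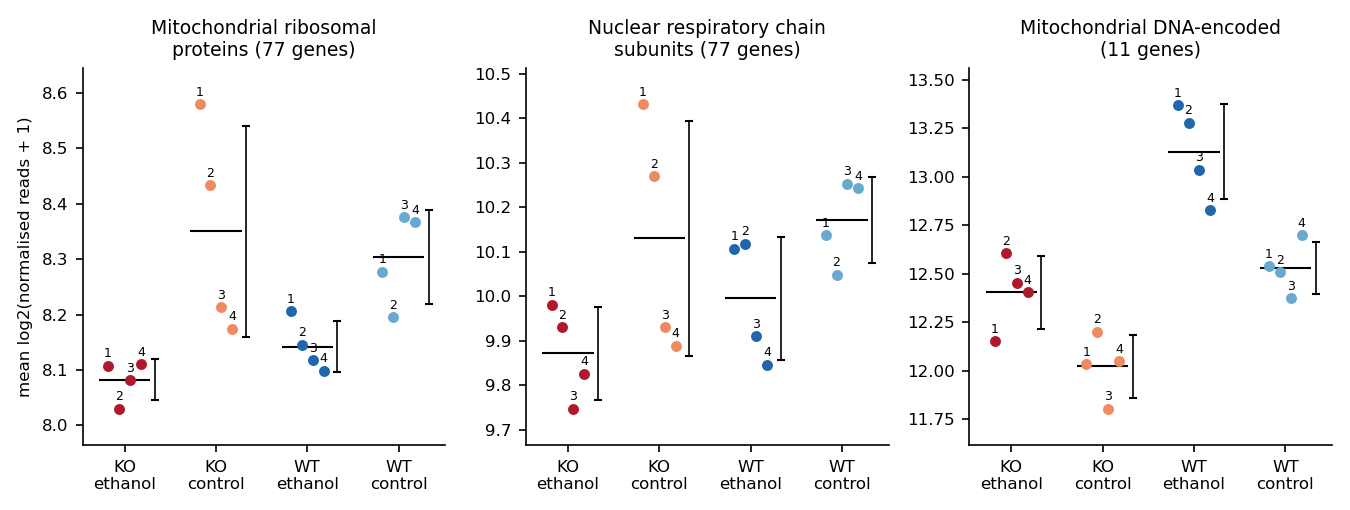
Mean over genes of log2(normalised reads + 1) in each of the 16 libraries (points, numbered by replicate), with the group mean (line) and SD (bar, n = 4), for 3 gene sets with separate vertical axes that do not start at 0. KO control libraries 1 and 2 are the 2 highest for the ribosomal proteins, and the mitochondrial DNA-encoded transcripts are higher in the ethanol group of each genotype.

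With ethanol, members of the mitochondrial ribosome fell in both genotypes. In KO livers 20 of 77 members fell and none rose (limma, adjusted p under 0.05), where 19.2% of all 13256 genes tested were called, 10.2% higher and 9.01% lower. In WT livers 17 fell and 3 rose, where 38.0% of all genes were called, 18.9% higher and 19.0% lower. The share of members that fell was thus 26.0% in KO, above the 9.01% of all genes, and 22.1% in WT, close to the 19.0% of all genes. The median log2 fold change of the members was -0.24 in KO and -0.17 in WT, where the median of all genes was -0.01 in both. The estimate was below 0 for 71 members in KO and for 59 in WT. KO ethanol and KO control libraries did not overlap for 23 members, all of them lower with ethanol (23.0% of all genes, 11.7% higher and 11.3% lower), and WT ethanol and WT control libraries for 26, of which 20 were lower (35.1% of all genes, 17.7% higher and 17.4% lower). The nuclear respiratory chain subunits moved by about as much, with medians of -0.26 in KO and -0.18 in WT, and 9 of 77 falling in KO and 10 in WT. Cytosolic ribosomal protein genes had a median of -0.25 in KO, about that of the members, and of 0.08 in WT. Of these 78 genes 3 fell and 0 rose in KO, and 2 fell and 10 rose in WT.

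The KO count moved with the libraries included. Of the 20 falls in KO, the count became 8 (10.4% of members, where 6.45% of all genes fell) without KO control library 1. It became 9 (11.7%, where 5.75% of all genes fell) without library 2. It was 28 (36.4%, where 10.7% of all genes fell) without KO control library 3. It was 25 (32.5%, where 8.15% fell) without library 4. It became 10 (12.99%, where 6.38% of all genes fell) without KO ethanol library 2 and 12 (15.6%, where 7.33% fell) without library 3. It became 7 (9.09%, where 3.21% fell) without KO ethanol libraries 1 and 4 together. No such omission turned the sign of the median, which lay between -0.30 and -0.16 with any single library left out. In WT the count of calls lay between 15 and 24 when any single library was left out, with 15.6% to 27.3% of members and 15.8% to 20.0% of all genes falling. Calls in KO that held under every alternative setting were those of Mrpl18, Mrpl27, Mrpl41, Mrpl49 and Mrps28; in WT they were those of Mrpl18, Mrpl48, Mrpl49, Mrps14, Mrps28, Mrps18b and Mrps2.

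**Figure D3:**
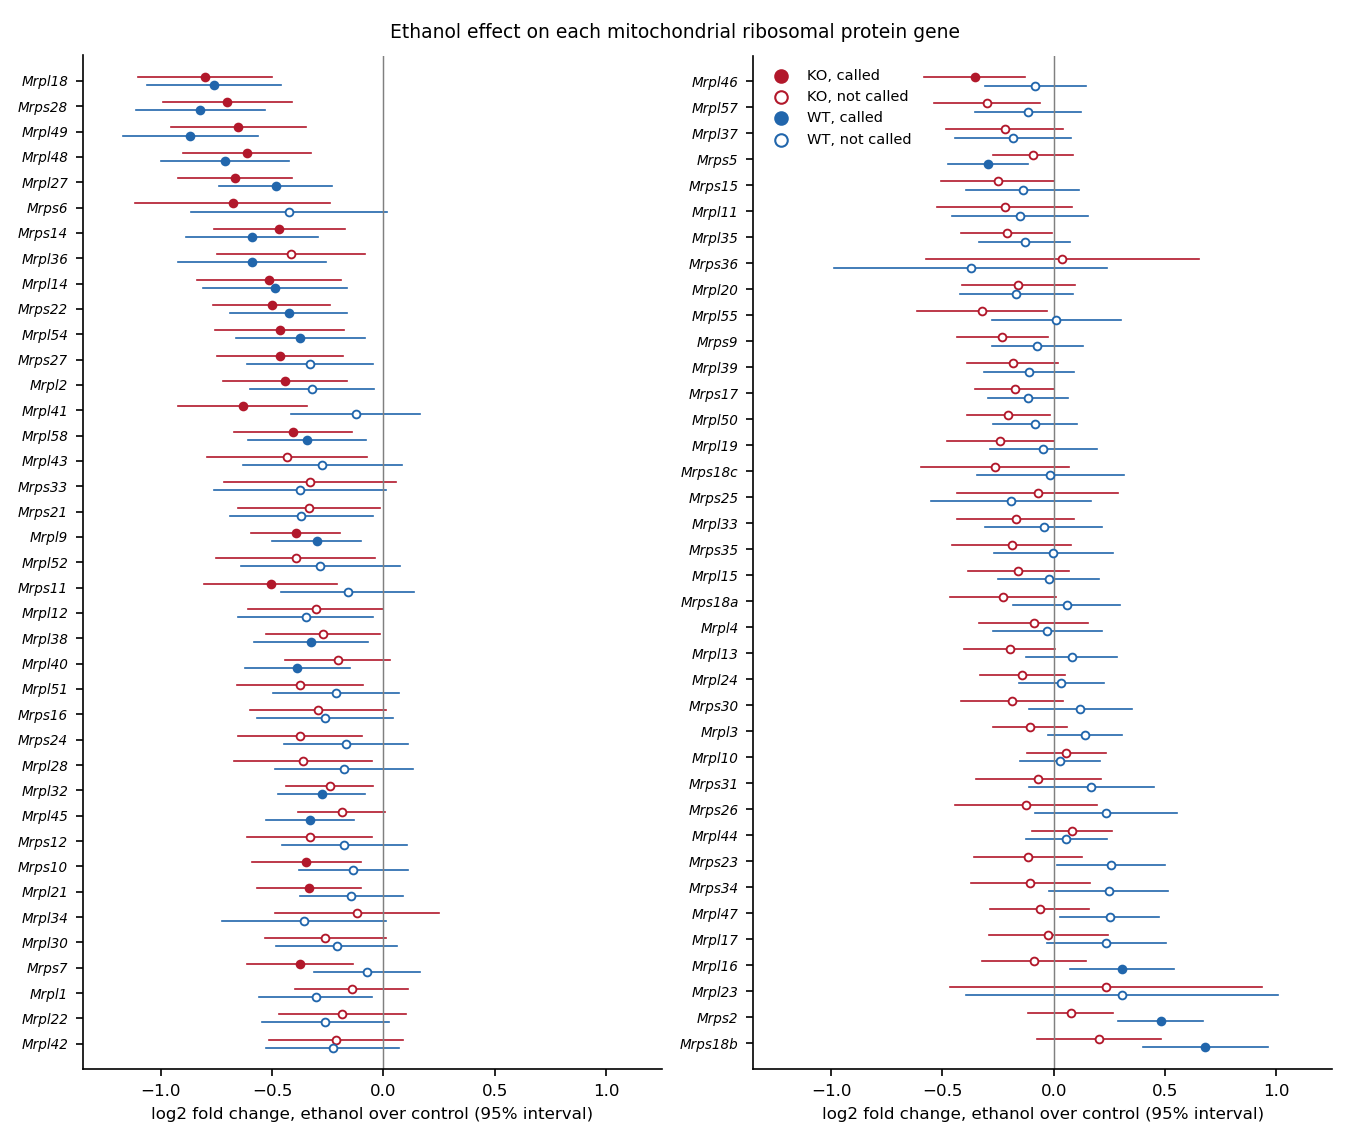
Log2 fold change of ethanol over control with its 95% interval for each of the 77 members, in KO (red, upper of each pair) and WT (blue, lower), sorted by the mean of both; filled points passed the test at an adjusted p under 0.05. Nearly all KO points lie left of 0, with Mrpl18 and Mrps28 farthest left, and the called rises Mrps18b, Mrps2 and Mrpl16 are WT points to the right of 0.

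Falls called in both genotypes covered 11 members, 55.0% of the 20 in KO and 64.7% of the 17 in WT: Mrpl9, Mrpl14, Mrpl18, Mrpl27, Mrpl48, Mrpl49, Mrpl54, Mrpl58, Mrps14, Mrps22 and Mrps28. The matching overlap over all genes is not given here, so these shares cannot be read as particular to the members. Across the 77 members the 2 ethanol effects, which share no library, had Pearson's r = 0.765 and Spearman's rho = 0.689, close to 0.767 and 0.716 across all 13256 genes tested; genes are not independent replicates.

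The central protuberance is a lobe of the large subunit in which a mitochondrial tRNA takes the place of the bacterial 5S rRNA. The 5 members listed for it here are not a full list of its proteins. Of these Mrpl18, Mrpl46 and Mrpl48 fell in KO and Mrpl18, Mrpl38, Mrpl40 and Mrpl48 fell in WT, where 9.01% of all genes fell in KO and 19.0% in WT. All 5 estimates were below 0 in each genotype. The calls of Mrpl46 in KO and Mrpl38 in WT were lost when single libraries were left out, which leaves 2 in KO and 3 in WT. Mrpl18 (ENSMUSG00000057388, chr17:12911349-12916345, GRCm38), the homologue of bacterial L18, had 319, 279.9, 266 and 299 normalised reads in the 4 KO ethanol libraries and 648, 535, 401 and 475 in the KO control ones. In WT it had 317, 339, 314 and 222 with ethanol and 518, 518, 462 and 500.3 in controls. Every ethanol library lay below every control library of its genotype. The log2 fold change was -0.80 ± 0.14 (SE, adjusted p = 0.00121) in KO and -0.76 ± 0.14 (SE, adjusted p = 0.000623) in WT, and the difference between these effects was -0.04 with a 95% interval from -0.47 to 0.39. Mrpl18 shares 10.1% of its exon bases with Tcp1 on the other strand.

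Mrpl48, a mitochondria-specific protein of the same lobe, had 177, 136, 146 and 141 normalised reads in KO ethanol and 253, 252, 189.7 and 228 in KO control. It had 210.1, 155, 155 and 179.6 in WT ethanol and 262, 254, 292 and 339 in WT control, again without overlap in either genotype. Its changes were -0.61 ± 0.14 (SE, adjusted p = 0.00535) in KO and -0.71 ± 0.14 (SE, adjusted p = 0.000717) in WT, the first of them lost with ethanol libraries 1 and 2 alone (adjusted p = 0.0502). The other listed proteins of the lobe, also mitochondria-specific, moved less. Mrpl46 changed by -0.35 ± 0.11 (SE, adjusted p = 0.0296) in KO and by -0.08 ± 0.11 in WT, where it did not pass the test. Mrpl40 and Mrpl38 changed in WT by -0.39 ± 0.11 (SE, adjusted p = 0.0117) and -0.33 ± 0.12 (SE, adjusted p = 0.0432), and by -0.21 ± 0.11 and -0.27 ± 0.12 (SE) in KO without passing the test. The Mrpl46 call was lost without KO control library 1 or 2 and the Mrpl38 call without any 1 of the WT control libraries (adjusted p up to 0.156 and 0.222).

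Among large subunit proteins outside that list Mrpl49 had the largest fall of any member in WT. Mrpl49 (ENSMUSG00000007338, chr19:6053622-6057785), a mitochondria-specific protein, had 252, 193, 234 and 232 normalised reads in KO ethanol and 453, 359, 300.2 and 330.5 in KO control, against 184, 205, 275 and 255 in WT ethanol and 446, 398, 375 and 443 in WT control. Ethanol libraries lay below control libraries throughout, with changes of -0.65 ± 0.14 (SE, adjusted p = 0.00507) in KO and -0.87 ± 0.14 (SE, adjusted p = 0.000222) in WT. Mrpl27, whose bacterial homologue reaches into the peptidyl transferase centre, averaged 214 ± 27.9 in KO ethanol and 339 ± 22.1 in KO control, and 199.7 ± 32.3 in WT ethanol and 277 ± 8.98 in WT control (SD, n = 4 each). It changed by -0.67 ± 0.12 (SE, adjusted p = 0.00134) in KO and -0.48 ± 0.12 (SE, adjusted p = 0.00483) in WT. Mrpl14, which faces the small subunit, changed by -0.51 ± 0.15 (SE, adjusted p = 0.0269) in KO and -0.49 ± 0.15 (SE, adjusted p = 0.0194) in WT. Mrpl58, a peptidyl-tRNA hydrolase of the release factor family that frees stalled ribosomes, changed by -0.41 ± 0.13 (SE, adjusted p = 0.0322) in KO and -0.34 ± 0.13 (SE, adjusted p = 0.0405) in WT. Leaving out single libraries ended these 4 calls: KO control 1 or 2 or KO ethanol 2 for both genes in KO, WT control 3 for both in WT; over all alternatives the adjusted p reached 0.121 and 0.209 in KO and 0.101 and 0.188 in WT for Mrpl14 and Mrpl58.

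The small subunit gave 8 falls among 26 members in KO and 4 falls with 2 rises in WT, and the large subunit 12 falls among 50 in KO and 13 falls with 1 rise in WT. In KO the falls were 30.8% of the small and 24% of the large subunit, where 9.01% of all genes fell. In WT they were 15.4% and 26%, where 19.0% of all genes fell and 18.9% rose, so the small subunit was below that share. Mrps28 (ENSMUSG00000040269, chr3:8802146-8923918), a small subunit protein, had 191, 169, 129 and 147 normalised reads in KO ethanol and 295, 269.8, 225 and 240.4 in KO control. It had 147, 129, 111 and 155 in WT ethanol and 248, 226, 259.8 and 224 in WT control. All ethanol libraries were below all control libraries of the same genotype, with changes of -0.70 ± 0.14 (SE, adjusted p = 0.00236) in KO and -0.82 ± 0.14 (SE, adjusted p = 0.000232) in WT. Mrps14, of the head of the subunit, changed by -0.47 ± 0.14 (SE, adjusted p = 0.0271) in KO, a call lost in 6 of 29 alternatives (adjusted p up to 0.140), KO control library 1 or 2 left out among them, and by -0.59 ± 0.14 (SE, adjusted p = 0.00343) in WT, where it held in all. Mrps22, a mitochondria-specific protein, changed by -0.50 ± 0.13 (SE, adjusted p = 0.0102) in KO and -0.43 ± 0.13 (SE, adjusted p = 0.0132) in WT.

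**Figure D4:**
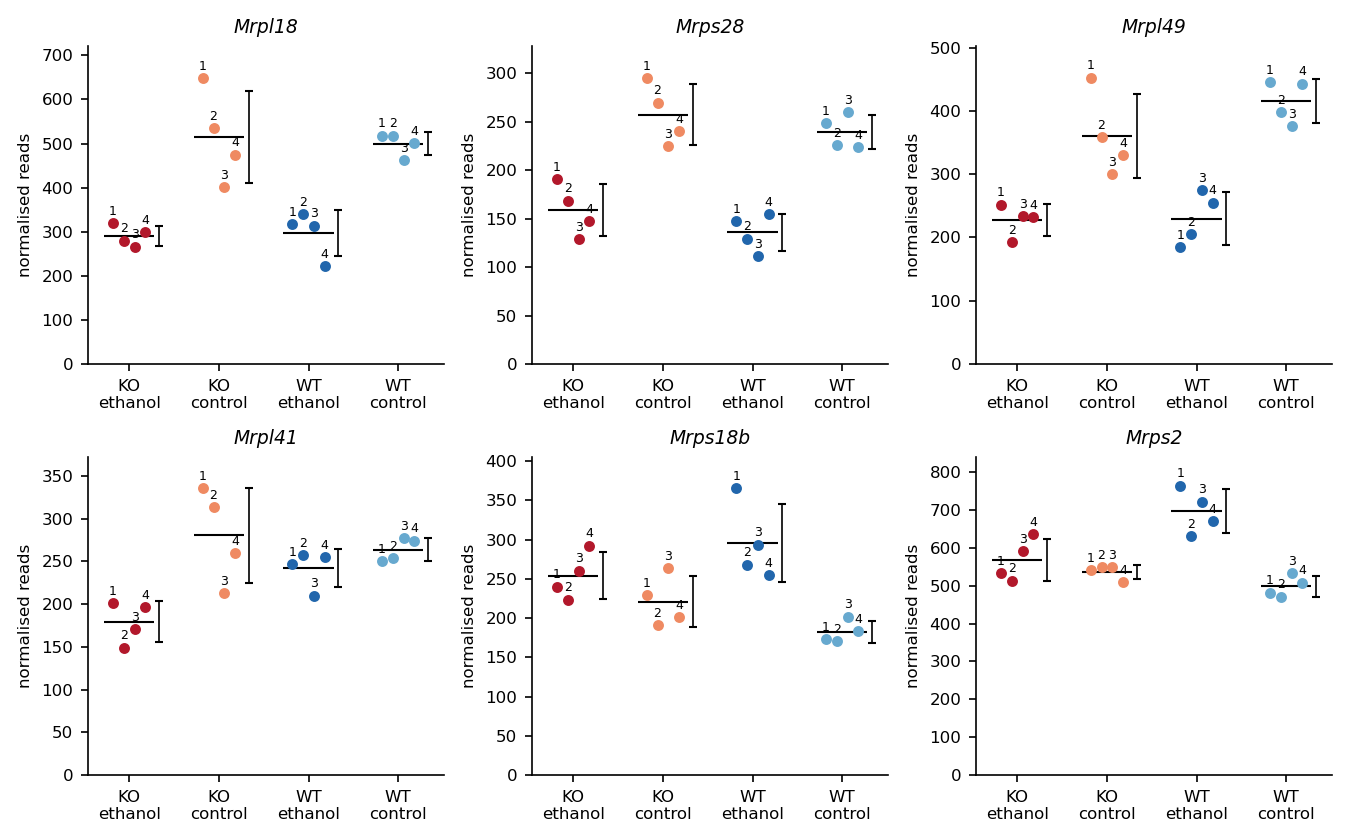
Normalised reads of 6 members in each of the 16 libraries (points, numbered by replicate) with the group mean (line) and SD (bar, n = 4); all axes start at 0. For Mrpl18, Mrps28 and Mrpl49 the ethanol libraries lie below the control libraries in both genotypes, for Mrpl41 in KO, and Mrps18b and Mrps2 are higher with ethanol in WT.

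In KO 9 members fell whose fall in WT did not pass the test; the difference between genotypes was tested separately and no member passed. Mrpl41, a mitochondria-specific large subunit protein, had 201, 149, 170.3 and 196 normalised reads in KO ethanol and 336, 313, 213 and 259 in KO control, and 247, 258, 209.9 and 255 in WT ethanol and 250.4, 253, 277 and 274 in WT control. The KO groups did not overlap and the WT groups did, and the changes were -0.63 ± 0.14 (SE, adjusted p = 0.00460) in KO and -0.12 ± 0.14 (SE) in WT. Mrps6, a homologue of bacterial S6, changed by -0.68 ± 0.21 (SE, adjusted p = 0.0307) in KO and by -0.42 ± 0.21 (SE, adjusted p = 0.119) in WT; the KO call was lost in 8 of 29 alternatives (adjusted p up to 0.184), KO control library 1 or 2 left out among them, and the KO groups overlapped through library 3 of each, with 77.6 normalised reads in KO ethanol and 75.5 in KO control. Mrps11, in the platform of the small subunit, changed by -0.51 ± 0.14 (SE, adjusted p = 0.0194) and Mrps27, a pentatricopeptide repeat protein, by -0.46 ± 0.13 (SE, adjusted p = 0.0230) in KO. Mrpl2 and Mrps7, among the highest members per kb, changed by -0.44 ± 0.13 (SE, adjusted p = 0.0271) and -0.38 ± 0.11 (SE, adjusted p = 0.0275) in KO. Each of these last 4 calls was lost when KO control library 1 was left out, with adjusted p-values over the alternatives of up to 0.196, 0.118, 0.123 and 0.113.

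In WT 6 members fell whose fall in KO did not pass the test. Mrpl45, which holds the tunnel exit against the inner membrane, averaged 299 ± 12.9 normalised reads in KO ethanol and 343 ± 43.9 in KO control (SD, n = 4 each), a change of -0.19 ± 0.09 (SE, adjusted p = 0.165). It averaged 277 ± 7.89 in WT ethanol and 348 ± 11.1 in WT control (SD, n = 4 each), without overlap, a change of -0.33 ± 0.09 (SE, adjusted p = 0.0106). Mrps5, whose bacterial homologue takes part in decoding accuracy, changed by -0.09 ± 0.09 (SE) in KO and by -0.30 ± 0.09 (SE, adjusted p = 0.0113) in WT.

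The members that rose did so in WT. Mrps18b (ENSMUSG00000024436, chr17:35910379-35916389), which codes for 1 of 3 paralogs of bacterial S18, had 240.0, 224, 261 and 293 normalised reads in KO ethanol and 229, 191, 263 and 201 in KO control, which overlap. In WT it had 366, 268, 294 and 255 with ethanol and 174, 171, 202 and 184 in controls, which do not. The change was 0.20 ± 0.13 (SE, adjusted p = 0.292) in KO and 0.68 ± 0.13 (SE, adjusted p = 0.000792) in WT. The antisense gene Gm16279 covers 30.5% of the Mrps18b exon bases, and without a stated strand setting their reads cannot be told apart. Neither paralog was called: Mrps18a, a large subunit protein, changed by -0.23 ± 0.11 in KO and 0.06 ± 0.11 in WT, and Mrps18c by -0.26 ± 0.16 in KO and -0.02 ± 0.16 in WT (SE).

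Mrps2, the homologue of bacterial S2, had 533, 513, 592 and 636 normalised reads in KO ethanol and 541, 549, 549 and 509.7 in KO control, a change of 0.08 ± 0.09 (SE, adjusted p = 0.580). In WT it had 764, 630.4, 722 and 670.0 with ethanol and 481, 471, 533 and 508 in controls, which do not overlap, a change of 0.48 ± 0.09 (SE, adjusted p = 0.000607). Mrpl16, near the peptidyl transferase centre, rose with a change of 0.31 ± 0.11 (SE, adjusted p = 0.0374) in WT, a call lost in 7 of 29 alternatives (adjusted p up to 0.304), WT control library 1, 2 or 4 left out among them, and changed by -0.09 ± 0.11 (SE) in KO.

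Of the measured members listed for the stalk 1 of 4 fell in KO and 1 of 4 in WT. Of the tunnel exit proteins listed here, which are not all of them, 0 of 4 fell in KO and 1 of 4 fell in WT. Of all genes 9.01% fell in KO and 19.0% in WT. In the stalk Mrpl54 fell in both genotypes, by -0.47 ± 0.14 (SE, adjusted p = 0.0255) in KO and -0.37 ± 0.14 (SE, adjusted p = 0.0406) in WT, calls that were lost with KO control library 1 or WT control library 1 left out (adjusted p up to 0.118 in KO and 0.278 in WT over the alternatives), while Mrpl12 changed by -0.30 ± 0.14 (SE, adjusted p = 0.147) in KO and -0.35 ± 0.14 (SE, adjusted p = 0.0653) in WT without passing the test. Mrpl12 had 1054, 897, 1068 and 1126 normalised reads in KO ethanol and 1704, 1463, 946 and 1121 in KO control, so that the KO groups overlapped through KO control libraries 3 and 4. Mrpl10, at the base of the stalk, stayed between 443 and 543 normalised reads in all 16 libraries, with changes of 0.06 ± 0.08 in KO and 0.03 ± 0.08 in WT and 95% intervals from -0.12 to 0.24 and from -0.15 to 0.21. Of the listed tunnel exit proteins only Mrpl45 was called. Mrpl44, an RNase III-like protein beside it, changed by 0.08 ± 0.09 in KO and 0.06 ± 0.09 in WT (SE). Mrpl24 and Mrpl23 were not called either, nor was Mrpl11 of the stalk. Mrps12, a decoding centre protein, and Mrps30, a large subunit protein despite its symbol, were not called in any comparison, nor were Mrps34 and Mrps35. Mrps34 shares 77.8% of its exon bases with Mapk8ip3 and Nme3.

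The difference between the ethanol effects, KO minus WT, was called for no member by limma, where 0.347% of all genes were called. At an unadjusted p under 0.05 there were 7 members, and edgeR and DESeq2 called none as well, with 6 and 5 at that level. The median difference over members was -0.11 and 55 of 77 estimates were below 0, where the median of all genes was -0.00. The largest differences below 0 were -0.51 ± 0.19 (SE, 95% interval -0.92 to -0.10, adjusted p = 0.272) for Mrpl41, -0.48 ± 0.19 (SE, -0.87 to -0.08, adjusted p = 0.285) for Mrps18b and -0.40 ± 0.13 (SE, -0.67 to -0.13, adjusted p = 0.183) for Mrps2, and the largest above 0 was 0.41 ± 0.41 (SE, -0.45 to 1.28, adjusted p = 0.698) for Mrps36. The intervals leave room for differences of that size in these members, so the failed test does not show that the genotypes respond alike.

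Between genotypes few members differed. In controls 1 of 77 was lower and none higher in KO than in WT (limma, adjusted p under 0.05), where 11.6% of all genes were called, 6.4% higher and 5.24% lower, and the groups did not overlap for 5 members, of which 2 were lower in KO (17.4% of all genes, 8.68% higher and 8.72% lower). That member was Mrps5 (ENSMUSG00000027374, chr2:127587222-127606829). It had 375, 376, 387 and 348 normalised reads in KO control and 470.3, 467, 444 and 497 in WT control. The groups were well apart, with a change of -0.34 ± 0.09 (SE, adjusted p = 0.0164) on the log2 scale, but without WT control library 4 the adjusted p was 0.0597. With ethanol it had 339, 369.8, 310.4 and 374 in KO and 391, 402, 361 and 374 in WT, which overlap, a change of -0.13 ± 0.09 (SE, adjusted p = 0.354). Mrpl48 was also separate between the control groups, lower in KO with a change of -0.31 ± 0.14 on the log2 scale (SE, adjusted p = 0.152). The median of the members between the control groups was 0.03.

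With ethanol 2 members were lower and none higher in KO than in WT, where 9.88% of all genes were called, 6.13% higher and 3.75% lower, and the groups did not overlap for 7 members, of which 6 were lower in KO (15.7% of all genes, 8.36% higher and 7.38% lower). Mrpl3, a homologue of bacterial L3, had 249.8, 269, 252 and 268 normalised reads in KO ethanol and 324, 298, 303 and 319 in WT ethanol, all KO values below all WT ones, a change of -0.26 ± 0.08 (SE, adjusted p = 0.0443). Mrps2, whose values are given above, overlapped in 1 library pair and was lower, with a change of -0.29 ± 0.09 (SE, adjusted p = 0.0478). With the replicate number as a block 0 members were called and edgeR also called 0. Leaving out any 1 of the WT control libraries ended both calls (adjusted p over the alternatives up to 0.307 for Mrpl3 and 0.482 for Mrps2). The 7 mitochondrial DNA-encoded transcripts that were lower in KO ethanol changed by more (median of all 11, -0.73) than the ribosomal proteins (median -0.05).

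Members with short exons had the lower estimates with ethanol. The log2 fold change of the 77 members was higher for members with longer annotated exons, with Spearman's rho = 0.381 in KO and 0.379 in WT, against 0.181 in KO and 0.0747 in WT across 13249 genes with a length. The 8 members under 1000 bases had medians of -0.49 in KO and -0.37 in WT, with 5 of them falling in KO and 4 in WT. The 22 members of 4000 bases or more had medians of -0.18 in KO and -0.06 in WT, with 2 falling in KO and 3 in WT. Across all genes the 751 under 1000 bases had medians of -0.16 in KO and -0.09 in WT, and the 6924 of 4000 bases or more 0.06 in KO and 0.03 in WT. The points share their libraries, and genes are not replicates. Mrpl48, with 8152 bases, was an exception, with falls of -0.61 in KO and -0.71 in WT.

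**Figure D5:**
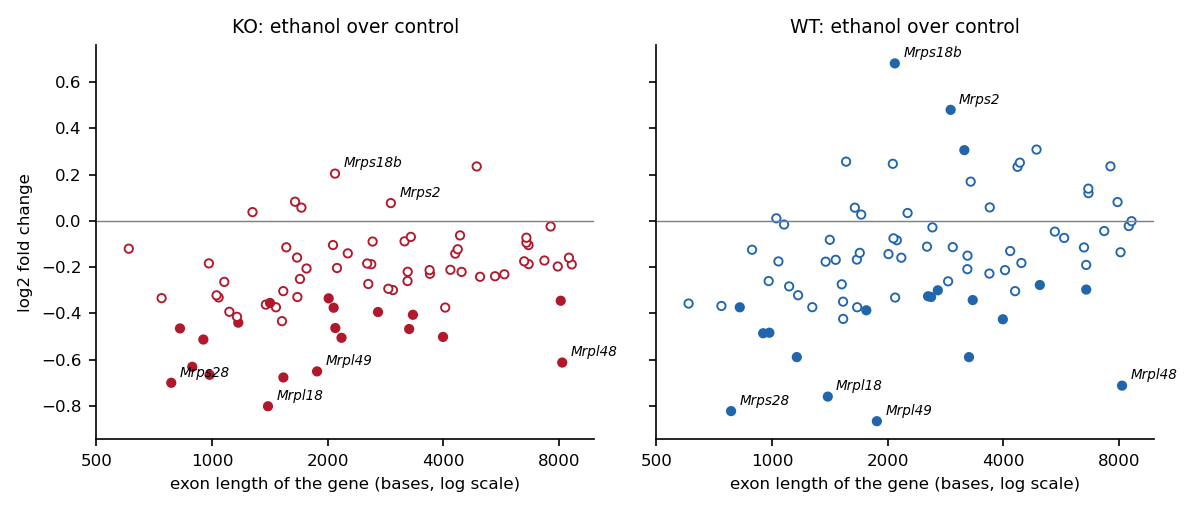
Log2 fold change of ethanol over control against annotated exon length (log axis, bases) for the 77 members in KO (left) and WT (right); filled points passed the test at an adjusted p under 0.05. The shortest members lie lowest on the whole, Mrpl48 is low despite its length, and the filled points above 0 are in WT.

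Many members sit head to head with another gene. For 26 of 77 the 5′ end lay within 1000 bases of the 5′ end of a gene on the other strand, allowing up to 500 bases of overlap. In KO 9 members with a tested partner fell, and for 3 of them the partner fell too. Counted per member, 24 had a tested partner, and 6 of these partners fell and 1 rose in KO, where 9.01% of all genes fell. In WT 6 such members fell and none of their partners was called. Of the 24 tested partners 1 fell and 3 rose in WT, where 19.0% of all genes fell. Mrpl46 and Mrps11 on chromosome 7 are partners of each other, with 5′ ends that overlap by 412 bases. As each is the partner of the other, this 1 pair is counted from both sides. It makes up 2 of the 3 members in KO whose partner fell too, and 2 of the 6 partners that fell. Mrpl46 had 208, 215, 209 and 234 normalised reads in KO ethanol and 323, 276, 252 and 259 in KO control, and Mrps11 had 110.2, 125, 146 and 120.3 in KO ethanol and 223, 192, 162 and 142 in KO control. Both were highest in KO control library 1. They share 12.2% and 7.97% of their exon bases, so some of their reads cannot be told apart.

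Falls were also found among proteins of the mitochondrial ribosome with other symbols. Of 5 tested, Chchd1 and Gadd45gip1 fell with ethanol in KO and Chchd1 fell in WT. This was 40% in KO, where 9.01% of all genes fell, and 20% in WT, close to the 19.0% of all genes. Chchd1, a small subunit protein, averaged 194 ± 21.6 normalised reads in KO ethanol and 269 ± 48.5 in KO control, and 233 ± 26.98 in WT ethanol and 308 ± 40.04 in WT control (SD, n = 4 each), changes of -0.45 ± 0.14 (SE, adjusted p = 0.0293) in KO and -0.40 ± 0.14 (SE, adjusted p = 0.0316) in WT. Gadd45gip1, of the large subunit, changed by -0.58 ± 0.16 (SE, adjusted p = 0.0199) in KO. Both KO calls were lost without KO control library 1 (adjusted p up to 0.216 for Chchd1 and 0.149 for Gadd45gip1), and the WT call of Chchd1 without WT control library 3 or 4 (up to 0.224).

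Among 25 assembly and rRNA modification factors 1 rose and 2 fell with ethanol in KO, and 2 rose and 5 fell in WT. The falls were 8% in KO and 20% in WT, close to the 9.01% and 19.0% of all genes. Calls in either direction were 12% in KO and 28% in WT, below the 19.2% and 38.0% of all genes. Rbfa, which matures the small subunit, changed by -0.59 ± 0.14 (SE, adjusted p = 0.00817) in KO and -0.54 ± 0.14 (SE, adjusted p = 0.00597) in WT, and Eral1, the chaperone of the small subunit rRNA, by -0.37 ± 0.12 (SE, adjusted p = 0.0456) in KO and -0.50 ± 0.12 (SE, adjusted p = 0.00459) in WT. Ddx28, a helicase of large subunit assembly, went the other way. It had 778, 626, 496 and 435 normalised reads in KO ethanol and 260.0, 189, 319.5 and 216 in KO control, and 787, 1107, 216 and 475 in WT ethanol and 195, 186, 175 and 169 in WT control. The WT ethanol libraries were widely spread, but none overlapped the controls, and the changes were 1.23 ± 0.35 (SE, adjusted p = 0.0198) in KO and 1.59 ± 0.35 (SE, adjusted p = 0.00189) in WT. In WT Mettl17, a small subunit assembly factor, changed by -0.75 ± 0.16 (SE, adjusted p = 0.00191). Between genotypes with ethanol, Mterf3, which takes part in large subunit biogenesis, was lower in KO with a change of -0.46 ± 0.10 (SE, adjusted p = 0.00737) and Mrm2, an rRNA methyltransferase, higher by 0.58 ± 0.17 (SE, adjusted p = 0.0433); in controls Mrm3, another rRNA methyltransferase, was higher in KO by 0.53 ± 0.16 (SE, adjusted p = 0.0389). Calls lost on leaving out 1 library were those of Eral1 in KO (KO control 1, 2 or 3 among them, adjusted p up to 0.218), Ddx28 in KO (KO control 2 or KO ethanol 1 or 2, up to 0.107), Mrm2 (up to 0.321) and Mrm3 (up to 0.118).

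Of 15 translation factors tested 2 fell in KO and 1 fell in WT, where 9.01% of all genes fell in KO and 19.0% in WT. In this list Tufm and Tsfm, the elongation factor that brings aminoacyl-tRNA and its exchange factor, changed in KO by -0.32 ± 0.10 (SE, adjusted p = 0.0367) for Tufm and -0.55 ± 0.16 (SE, adjusted p = 0.0213) for Tsfm, both lost without KO control library 1 (adjusted p up to 0.199 and 0.106), and in WT Mtfmt, the formyltransferase of the initiator tRNA, changed by -0.48 ± 0.13 (SE, adjusted p = 0.0101). Of 20 mitochondrial aminoacyl-tRNA synthetases 4 fell and none rose in KO, and 6 fell and 1 rose in WT. This was 20.0% called in KO and 35.0% called in WT, where 19.2% of all genes were called in KO and 38.0% in WT. The falls alone were 20% in KO and 30% in WT, above the 9.01% and 19.0% of all genes that fell. Of the KO falls, those of Cars2 and Sars2 were lost without KO control library 1 or 2. Aars2, for alanine, changed by -0.54 ± 0.12 (SE, adjusted p = 0.00404) in KO and -0.81 ± 0.12 (SE, adjusted p = 6.28e-05) in WT, and Tars2, for threonine, by -0.41 ± 0.10 (SE, adjusted p = 0.00708) in KO and -0.43 ± 0.10 (SE, adjusted p = 0.00213) in WT. The synthetase that rose in WT was Mars2, for methionine, with 119, 124, 124 and 103 normalised reads in WT ethanol and 78.9, 33.8, 68.1 and 73.7 in WT control.

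Of 13 nuclear regulators of mitochondrial genes 2 rose and 1 fell with ethanol in KO, and 5 rose and 1 fell in WT. This was 23.1% called in KO and 46.2% called in WT, where 19.2% of all genes were called in KO and 38.0% in WT. Nrf1 averaged 198 ± 23.8 normalised reads in KO ethanol and 152 ± 13.04 in KO control, and 229 ± 20.8 in WT ethanol and 147 ± 7.70 in WT control (SD, n = 4 each), with changes of 0.37 ± 0.11 (SE, adjusted p = 0.0258) in KO and 0.63 ± 0.11 (SE, adjusted p = 0.00034) in WT. Gabpb1, a subunit of GABP, changed by 0.41 ± 0.13 (SE, adjusted p = 0.0356) in KO and 0.93 ± 0.13 (SE, adjusted p = 5.12e-05) in WT. Both KO calls were lost without KO control library 1 (adjusted p up to 0.282 for Nrf1 and 0.228 for Gabpb1). Pprc1, a coactivator of the PGC-1 family, changed in WT by 1.19 ± 0.15 (SE, adjusted p = 1.58e-05) and Myc by 3.07 ± 0.36 (SE, adjusted p = 1.05e-05). Tfam, which packages mitochondrial DNA, changed in KO by -0.31 ± 0.08 (SE, adjusted p = 0.0160), a call lost without KO control library 2 or KO ethanol library 2 (adjusted p up to 0.111). Gabpa, the DNA-binding subunit of GABP, was lower in KO than in WT in both conditions. It had 683, 718, 654 and 637 normalised reads in KO ethanol against 953, 962, 921 and 773 in WT ethanol, and 564, 679.8, 679.5 and 696 in KO control against 846, 803, 776 and 859 in WT control. Neither pair overlapped, and the changes were -0.42 ± 0.09 (SE, adjusted p = 0.00805) with ethanol and -0.33 ± 0.09 (SE, adjusted p = 0.0301) in controls, the second lost without WT control library 1 or 4 or KO control library 1 (adjusted p up to 0.0866). Myc was higher in KO control than in WT control, by 2.27 ± 0.36 (SE, adjusted p = 0.000598).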

How the data were processed

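RNA from liver was read as 75 bp single reads in 16 libraries, 4 in each of 4 groups taken from the labels. Per the submitters' processing notes, reads were handled with HISAT2 2.1.0.13, HTSeq and edgeR on GRCm38; the strand setting is not given in the sources used here. The deposited signal values are normalised reads per gene that, judged from the values, the authors made by dividing counts by a factor per library (0.814 to 1.26). In every library 100% of the values were whole multiples of 1 read within 0.01 of a read, so read counts could be recovered from the deposited values. Libraries of one group differed beyond sampling noise (chi-square per gene 10.9 to 118). Gene symbols, biotypes and exons came from the GENCODE M21 annotation, which matched 27242 of 27288 IDs. Normalised read values per kb are the mean divided by annotated exon length.

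Values were tested as log2(value + 1) with limma 3.58.1 (R 4.3.3, empirical Bayes with trend) in 1 fit of 4 group means over 13256 genes with a mean of at least 10, with Benjamini-Hochberg adjustment over all of them, a threshold of 0.05 and 95% intervals. Fold changes on this scale understate the change of low genes. Alternatives were edgeR 4.0.16 and DESeq2 1.42.0 on the recovered reads, TMM factors, other pseudocounts and filters, no trend, only the groups compared, a replicate block and libraries left out. On simulated counts for ethanol against control in KO (13256 genes, 200 changed), 32% of 1.5-fold and 69% of 2-fold changes were recovered.

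The members and gene lists were chosen with earlier results of these data known. Named members were the 5 largest called rises and falls per comparison, the 4 highest and 4 lowest per kb and those with fixed roles; from each pathway list, the 3 called genes with the smallest p per comparison were eligible. The labels do not say that replicate numbers pair the libraries; deviations of same-numbered libraries from their group means correlated at 0.115, 0.246, 0.219 and 0.102 between the ethanol groups. Each was over 0.1, the criterion for reading the numbers as pairs, but different-numbered pairs within libraries 1 and 2 or within 3 and 4 correlated alike (0.0975 to 0.199) and pairs across them at -0.250 to -0.0762. The numbers are thus not singled out: libraries 1 and 2 deviated against 3 and 4, and each of these sets was also fitted alone.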

Additional observations from a re-analysis of the deposited data

Results flagged for a closer look

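In 6 of 164 groups of 4 libraries examined, 1 library lay far from the other 3 by Dixon's 95% criterion, where chance gives about 5%. Mrpl45 had 319 normalised reads in KO ethanol library 4, against 291 to 294 in the other KO ethanol libraries. Mrpl58 had 371 in WT ethanol library 2, against 314 to 323 in the other WT ethanol libraries, and Mrpl40 had 207 in the same library, against 196 to 197. WT control library 3 was the high one for Mrpl10 (543, against 471 to 479.5 in the other WT control libraries), Mrpl14 (574, against 485 to 499.9) and Mrpl38 (956, against 838 to 851).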

How the results depend on the processing

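The median log2 fold change of the members stayed below 0 for ethanol against control in both genotypes under every alternative run, while counts of called members moved. Using ethanol libraries 1 and 2 only, the counts were 9 for ethanol in KO, 13 for ethanol in WT, 0 for KO against WT with ethanol and 2 for KO against WT in controls; with ethanol libraries 3 and 4 only they were 9, 10 and 0 for the first 3 of these. Without KO ethanol libraries 1 and 4 the count for ethanol in KO was 7, against 20 with all libraries. For KO against WT with ethanol, 2 with all libraries, the count was 0 without a filter, with TMM factors, with edgeR, with only the groups compared, with the replicate block and without KO ethanol libraries 1 and 4, and 1 with no trend. With the replicate block the other counts were 16 for ethanol in KO, 18 for ethanol in WT, 1 for KO against WT in controls and 0 for the difference of ethanol effects.

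Leaving out 1 library at a time gave counts of 8 to 28 for ethanol in KO, 15 to 24 for ethanol in WT (with 1745 to 2947 of all genes called in KO and 4251 to 5289 in WT), 0 to 3 for KO against WT with ethanol, 0 to 2 in controls and 0 for the difference. In KO the share of members that fell was above that of all genes in 16 of 16 omissions, and in WT in 14 of 16. The exceptions in WT were without WT control library 4 and without WT ethanol library 3. These omissions include libraries of the other genotype, which are not in the comparison: without any single WT library the KO falls stayed at 18 to 20. The fits also share most of their libraries, so they are not independent support. The member medians were then -0.30 to -0.16, -0.20 to -0.12, -0.09 to -0.05, -0.02 to 0.11 and -0.16 to -0.03 in the same order of comparisons. Dnm1l ranged from -0.11 to 0.033 (log2) for KO against WT in controls, the last without KO control library 3, where the sign turned, and from 0.02 to 0.15 with ethanol. The cause of these shifts was not tested. With 4 libraries a group, members not called may still differ. In simulated data for ethanol in KO a fold change of 1.5 was recovered for 32% of the changed genes. That simulation changed only 200 of 13256 genes, where 19.2% of all genes were called in the data. Its changed genes were drawn from all genes tested, so the 32% is not the recovery for the members.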
